A study of Mus musculus with 6 samples.

Results

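The genes described here are 10 transcription factors of striatal projection neurons, namely Foxp1, Foxp2, Foxp4, Meis1, Meis2, Pbx3, Bcl11a, Bcl11b, Ikzf1 and Six3. They were taken by gene name from the deposited table of normalized counts, and all 10 were found among its 57132 genes. The libraries hold total RNA of tdTomato-positive cells, FAC-sorted from E14.5 mouse cortex, with 3 Dnmt1 KO libraries (Sst-Cre/tdTomato with floxed Dnmt1) and 3 control libraries (Sst-Cre/tdTomato), on a C57BL/6J background. The genotype field of the labels reads Sst-Cre/tdTomato for all 6 libraries, so the groups rest on the sample titles. In both genotypes Sst-Cre, which is active once cells start to make somatostatin, switches on tdTomato, and in Dnmt1 KO cells it also cuts out part of the gene of the maintenance DNA methyltransferase, Dnmt1. Each library held cells of more than a single embryo, and no source used here tells which embryos went into which library. The p-values thus cover only the variation among these 6 libraries, part of which may be technical.

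Striatal projection neurons are the GABAergic output neurons of the striatum and arise in the lateral ganglionic eminence, next to the medial ganglionic eminence in which Sst interneurons are born. FOXP proteins are forkhead factors that bind DNA as dimers with each other. MEIS and PBX proteins are homeodomain factors of the TALE class that bind DNA together, and Meis2 is widely used to mark the lateral eminence and its descendants. BCL11A and BCL11B are zinc finger factors that work with the NuRD and BAF chromatin complexes, and Bcl11b is required for striatal neurons to mature. Six3 is a homeobox gene of the early forebrain that is needed for striatal neurons of the indirect pathway, and Ikzf1 is best known from blood cells, with a later role in striatal neurons that make enkephalin.

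As Dnmt1 acts on CpG sites, the stretch upstream of the members' RefSeq starts is shown before their expression. RefSeq promoter windows were given for 8 of the 10 members, 11 windows in all, and Foxp2 and Pbx3 had none. Over the 250 bases upstream of the start, CpG sites numbered 44 at the first Ikzf1 window and 1 at the second, against a median of 6 over the 32851 windows of all genes. The 3 Foxp1 windows held 34, 3 and 11, and Foxp4 held 27. Bcl11a had 16, Meis1 13, Six3 10, Bcl11b 9 and Meis2 7. The windows of Foxp4, Meis1 and Bcl11b and the first of Ikzf1 held 0 bases free of annotated exons of any gene. In the Meis2 window the longest free stretch was 25 bases. Counts over whole windows can thus include CpG sites in exons. Whether the number of sites relates to the losses described next was not tested. The windows with at least 200 bases free of annotated exons are printed 5′ to 3′, with every CpG in capitals, for the member with the strongest loss (Six3), for the member with the weakest called loss (Bcl11a) and for an internal start of Foxp1.

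Six3: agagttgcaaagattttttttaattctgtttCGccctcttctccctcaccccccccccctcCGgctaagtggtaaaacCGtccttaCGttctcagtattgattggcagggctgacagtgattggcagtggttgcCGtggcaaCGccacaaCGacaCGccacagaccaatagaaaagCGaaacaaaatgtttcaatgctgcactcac
Bcl11a: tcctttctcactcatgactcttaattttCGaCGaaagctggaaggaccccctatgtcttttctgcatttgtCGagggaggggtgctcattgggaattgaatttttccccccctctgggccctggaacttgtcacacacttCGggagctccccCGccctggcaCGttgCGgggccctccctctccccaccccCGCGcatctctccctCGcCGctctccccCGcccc
Foxp1: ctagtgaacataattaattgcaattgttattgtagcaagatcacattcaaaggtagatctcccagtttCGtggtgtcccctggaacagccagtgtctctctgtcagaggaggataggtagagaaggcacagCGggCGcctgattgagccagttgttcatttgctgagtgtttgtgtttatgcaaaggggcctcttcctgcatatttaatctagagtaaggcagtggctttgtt

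In GRCm39 these stretches matched 1 place each by sequence. The Six3 stretch is chr17:85928012-85928217 on the plus strand and ends 44 bases before the RefSeq start. The Bcl11a stretch is chr11:24030445-24030669 on the plus strand and ends 25 bases before the start. The Foxp1 stretch is chr6:99243494-99243726 on the minus strand and ends 17 bases before an internal start. None of the 3 overlaps an exon of GENCODE M39, and each lies within the annotated span of its own gene, since other transcripts start further upstream. The letters TGACAG, the core bound by MEIS factors, stood on either strand in 2 of the 11 windows (Six3 and the internal Foxp1 start), against 15.9% of all promoter windows of this length. The PBX letters TGATTGA stood in 1 window (the internal Foxp1 start), against 2.34% of all windows. The forkhead letters TGTTTAC stood in 0 of the 11, against 3.17% of all windows. These are matches of letters, and no binding or methylation was measured here.

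Of the 9 tested members 8 were lower in Dnmt1 KO cells and 0 were higher. Among all 14126 tested genes 11.6% were called lower and 7.64% higher, which makes 19.2% in either direction. Tested genes had a mean normalized count of at least 10, and a call is an adjusted p under 0.05 in limma. In the same 8 members the Dnmt1 KO values were all below the control values, as in 18.1% of tested genes, and no member had all Dnmt1 KO values above, as in 18.6% of tested genes. The median log2 fold change of the 9 was -1.17, and that of all tested genes was 0.02. In 5 members the fitted level fell to less than 50% of control, against 6.57% of tested genes and 2.94% of tested protein-coding genes. The 10 members summed to 6066 ± 150 normalized counts in Dnmt1 KO libraries and 8091 ± 357 in control libraries (SD, n = 3 each). In bulk libraries fewer cells of a type and less RNA per cell cannot be told apart.

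**Figure D1:**
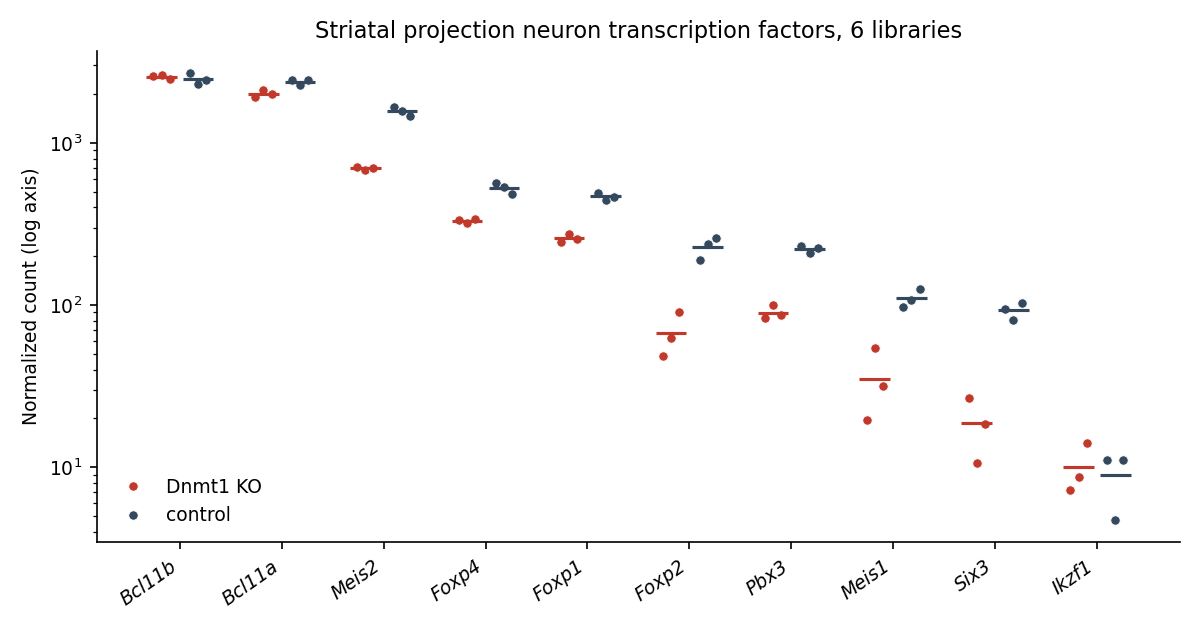
Normalized counts of the 10 factors (log axis) in the 3 Dnmt1 KO libraries (red, left) and the 3 control libraries (dark, right), with points for libraries and bars for group means. The groups do not overlap in 8 factors, while Bcl11b and Ikzf1 overlap.

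The libraries held 7323813 to 10089981 reads in Dnmt1 KO and 7154043 to 9444781 reads in control. One read was worth 0.740 to 1.23 normalized counts, and a count of 0 allows up to 2.22 to 3.70 normalized counts. Control replicate 1 stood apart on the second principal component (13.6% of variance), and the first (57.5%) separated the genotypes. Dnmt1 itself had 2411, 2243 and 2255 normalized counts in Dnmt1 KO libraries, against 3025, 2539 and 2741 in control libraries (log2 fold change -0.26, SE 0.07, adjusted p = 0.0218, limma). This call was lost without Dnmt1 KO replicate 2 (adjusted p = 0.0852), Dnmt1 KO replicate 3 (0.0932) or control replicate 1 (0.0576), and under quantile or total-read scaling. Counts over the whole gene include reads outside the deleted part. Sst, the gene that defines the sorted lineage, had 3154 to 3453 normalized counts in Dnmt1 KO libraries and 2852 to 3068 in control libraries.

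All 3 FOXP members of the set fell, and Foxp2 fell most. Foxp1 (chr6:98902299-99499685, minus strand), which both classes of striatal projection neuron express, had 245, 273 and 257 normalized counts in Dnmt1 KO libraries, against 493, 444 and 463 in control libraries. All 3 Dnmt1 KO values lay far below the lowest control value (log2 fold change -0.85, SE 0.09, adjusted p = 2.23e-05). Foxp4 (chr17:48178058-48235699, minus strand), a close paralogue found in many developing tissues, had 333, 321 and 339 normalized counts in Dnmt1 KO libraries, against 567, 531 and 486 in control libraries. The Dnmt1 KO values of Foxp4 were tightly grouped, with a coefficient of variation of 2.72%, and its fall was the mildest of the 3 (log2 fold change -0.67, SE 0.09, adjusted p = 0.000132).

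Foxp2 (chr6:14901287-15441976, plus strand), which is linked to speech in humans and is enriched in striatal neurons of the direct pathway, had 48.5, 62.9 and 91.1 normalized counts in Dnmt1 KO libraries. The control libraries had 190, 238 and 259. The groups were 99.1 normalized counts apart at their closest, and Foxp2 was at 29.4% of control (log2 fold change -1.78, SE 0.21, adjusted p = 4.92e-05). Spread between libraries was wider for Foxp2 than for Foxp1 and Foxp4 in each genotype, with coefficients of variation of 32.0% in Dnmt1 KO and 15.5% in control. The 3 FOXP genes summed to 657 ± 30.6 normalized counts in Dnmt1 KO libraries and 1224 ± 22.6 in control libraries (SD, n = 3 each), which is 53.7% of control.

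The TALE homeodomain members fell together. Meis2 (chr2:115693062-115896341, minus strand) had 704, 682 and 703 normalized counts in Dnmt1 KO libraries, against 1672, 1574 and 1468 in control libraries. It was the most abundant member that fell below 50% of control, and its Dnmt1 KO libraries were tightly grouped, with a coefficient of variation of 1.76%. Its log2 fold change of -1.17 (SE 0.07) had the smallest adjusted p of the members, 2.10e-07. At least as strong a loss was fitted for 791 of the tested genes.

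Pbx3 (chr2:34061469-34263154, minus strand), whose protein is a DNA-binding partner of MEIS proteins, had 82.6, 99.7 and 86.6 normalized counts in Dnmt1 KO libraries, against 232, 210 and 224 in control libraries. Its level was 40.4% of control, close to the 44.3% of Meis2 (log2 fold change -1.30, SE 0.13, adjusted p = 1.18e-05). Meis1 (chr11:18829817-18969749, minus strand), the less abundant MEIS member of the set, had 19.6, 54.2 and 31.8 normalized counts in Dnmt1 KO libraries. The control libraries had 97.5, 108 and 125. The Meis1 groups did not overlap, but the Dnmt1 KO values rested on only 19, 56 and 43 reads and spread with a coefficient of variation of 49.8%. The log2 fold change was -1.72 with a wide 95% confidence interval of -2.36 to -1.09 (adjusted p = 0.00115). Meis1, Meis2 and Pbx3 summed to 821 ± 14.8 normalized counts in Dnmt1 KO libraries and 1903 ± 93.0 in control libraries (SD, n = 3 each), which is 43.1% of control.

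Six3 (chr17:85920640-85936730, plus strand) had the strongest loss of the members. It had 26.9, 10.6 and 18.5 normalized counts in Dnmt1 KO libraries, against 93.8, 81.4 and 102 in control libraries. The groups were at least 54.5 normalized counts apart, with a fitted log2 fold change of -2.33, SE 0.30 and adjusted p = 0.000118. The reads behind these values numbered 62 over the Dnmt1 KO libraries (95% exact Poisson interval 47.5 to 79.5) and 254 over the control libraries (224 to 287). These intervals cover counting error only and treat reads as independent. The 206 bases printed for Six3 hold 9 CpG sites and the TGACAG letters, which stood in 15.9% of all promoter windows. A link of either to the loss was not tested.

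The BCL11 genes, which are the most abundant members, were set apart from the rest by a small change or none. Bcl11a (chr11:24027941-24124123, plus strand) had 1902, 2125 and 2005 normalized counts in Dnmt1 KO libraries, against 2437, 2281 and 2436 in control libraries. The groups did not overlap, and Bcl11a was at 84.3% of control (log2 fold change -0.25, SE 0.06, adjusted p = 0.0175). The call was lost without Dnmt1 KO replicate 1 (log2 fold change -0.21, adjusted p = 0.0654), without Dnmt1 KO replicate 3 (-0.25, 0.0721) and without control replicate 3 (-0.23, 0.0624). It was also lost under quantile normalization (-0.15, 0.124), and under scaling by total reads the value was 0.012. Total-read scaling moved the median of all tested genes to 0.28, and relative to that median Bcl11a stood at -0.26.

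Bcl11b (chr12:107876656-107970417, minus strand) had 2585, 2599 and 2461 normalized counts in Dnmt1 KO libraries, against 2689, 2311 and 2433 in control libraries. The groups overlapped, and no difference was called (log2 fold change 0.04, SE 0.07, adjusted p = 0.708). The 95% confidence interval ran from -0.10 to 0.19, and the fold change of no other tested member lies within it. Under scaling by total reads Bcl11b was called higher (0.30, adjusted p = 0.00493), or 0.02 relative to the median of all tested genes, and without control replicate 2 its value was -0.0060. Together Bcl11a and Bcl11b made up 74.4 to 75.7% of the members' normalized counts in Dnmt1 KO libraries and 59.0 to 60.8% in control libraries. Without them, the other 8 members summed to 1466 to 1540 normalized counts in Dnmt1 KO libraries and 3138 to 3356 in control libraries.

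Ikzf1 (chr11:11634980-11723186, plus strand) was the 1 member below the filter on low values and was not tested. It had 7.23, 8.71 and 14.1 normalized counts in Dnmt1 KO libraries, against 11.1, 4.73 and 11.1 in control libraries. These values rest on 7, 9 and 19 reads in Dnmt1 KO and 9, 5 and 10 reads in control, and the groups overlap. With no filter, the fitted log2 fold change was 0.17 (SE 0.53, adjusted p = 0.874), so a difference was not detectable at this depth. Ikzf1 is also expressed by blood and microglial cells, and the 13 markers of those cells summed to 88.8 to 111 normalized counts in Dnmt1 KO libraries and 64.3 to 93.8 in control libraries. The part of those cells in the Ikzf1 reads was not tested.

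**Figure D2:**
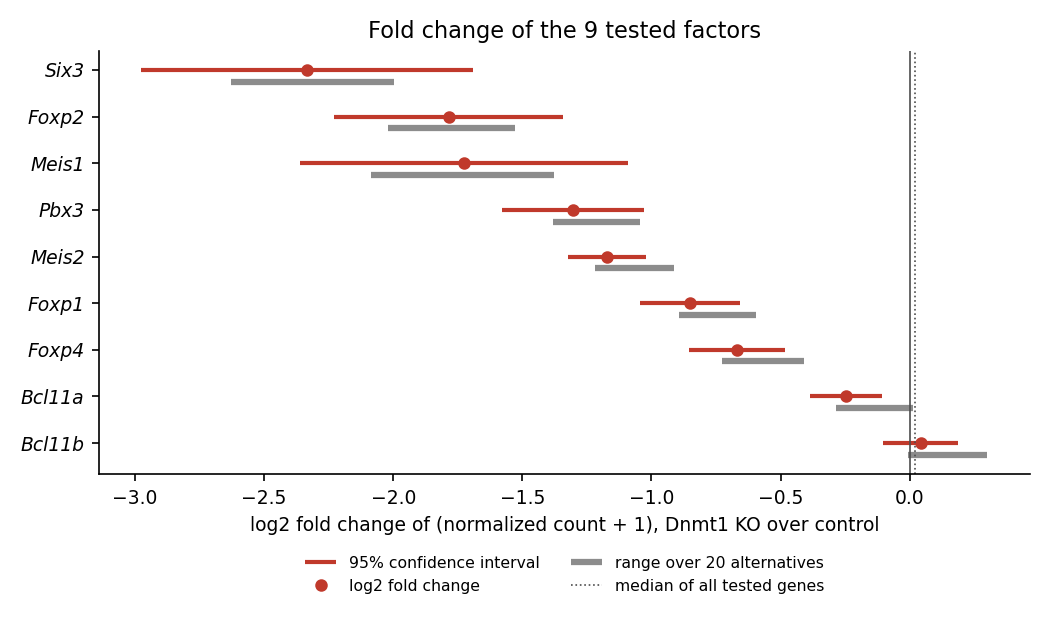
Log2 fold change of the 9 tested factors (Dnmt1 KO over control, red points) with 95% confidence intervals (red lines) and the range over the 20 alternative analyses (grey bars). The grey bars of 7 factors stay below 0, and those of Bcl11a and Bcl11b reach both sides of 0.

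Paralogues were also compared by their ratio inside each library, which hardly depends on the scaling between libraries. The log2 ratio of Foxp2 to Foxp4 was -2.75, -2.33 and -1.89 in Dnmt1 KO libraries, against -1.57, -1.15 and -0.90 in control libraries. The groups did not overlap, and the difference of -1.12 had the smallest p that an exact two-sided permutation test of 3 against 3 allows (0.1, and 0.167 adjusted over 5 pairs). The ratio of Foxp1 to Foxp2 was 0.93 higher in Dnmt1 KO libraries, also with no overlap (exact permutation p = 0.1, adjusted 0.167). Foxp1 to Foxp4 differed by -0.18 with overlapping groups (exact permutation p = 0.2, adjusted 0.25).

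The log2 ratio of Bcl11a to Bcl11b was -0.44, -0.29 and -0.30 in Dnmt1 KO libraries, against -0.14, -0.02 and 0.00 in control libraries. These groups were apart by a difference of -0.29 (exact permutation p = 0.1, adjusted 0.167). The ratio of Meis1 to Meis2 differed by -0.55 with overlapping groups (exact permutation p = 0.3, adjusted 0.3), and it moved to -0.20 without Dnmt1 KO replicate 1 and to -0.93 without Dnmt1 KO replicate 2. No pair could reach an adjusted p under 0.05 in this design.

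**Figure D3:**
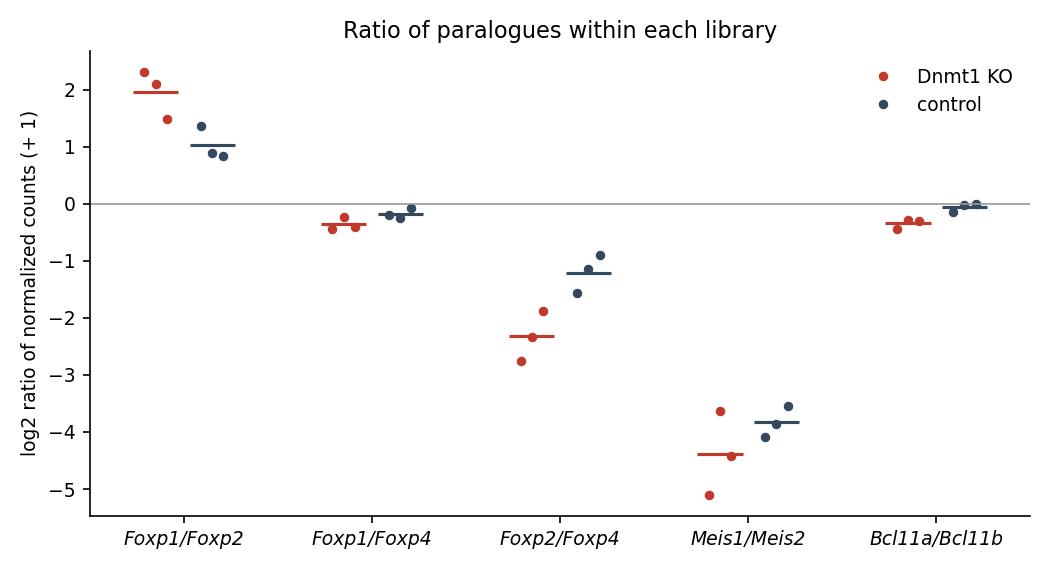
Log2 ratio of normalized counts (+ 1) of 5 paralogue pairs within each library, with Dnmt1 KO libraries (red, left), control libraries (dark, right) and bars for group means. Foxp1/Foxp2, Foxp2/Foxp4 and Bcl11a/Bcl11b separate the groups, while Foxp1/Foxp4 and Meis1/Meis2 overlap.

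Per kilobase of annotated exon, Bcl11b led in both genotypes, with 271 ± 8.09 normalized counts per kb in Dnmt1 KO libraries and 263 ± 20.5 in control libraries (SD, n = 3 each). Bcl11a came next, with 150.03 ± 8.32 per kb in Dnmt1 KO libraries and 178 ± 6.70 in control libraries. By this measure the next places were exchanged between the genotypes, whereas in normalized counts Meis2 stood above Foxp4 in each genotype. The length takes in all annotated exons, whether or not these cells use them. In Dnmt1 KO libraries Foxp4 (60.5 per kb) stood above Meis2 (53.7 per kb), whereas in control libraries Meis2 (121 per kb) stood above Foxp4 (96.5 per kb), and neither pair overlapped. Foxp1 (15.97 per kb) stood above Pbx3 (12.5 per kb) in Dnmt1 KO libraries, while in control libraries Pbx3 (30.9 per kb) and Foxp1 (28.9 per kb) overlapped. At the low end Foxp2, Six3 and Meis1 had 3.91, 3.34 and 3.117 per kb in Dnmt1 KO libraries and 13.3, 16.6 and 9.74 per kb in control libraries. Neighbours among these 3 overlapped in each genotype, and Ikzf1 was lowest in each with 1.02 per kb in Dnmt1 KO and 0.92 per kb in control.

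Of the 20 alternative analyses, among them edgeR and DESeq2 on recovered reads, other scalings, filters and the removal of each library, all 20 kept the call and direction of Foxp1, Foxp2, Foxp4, Meis1, Meis2, Pbx3 and Six3. The log2 fold change ranged from -2.63 to -2.00 for Six3, from -2.02 to -1.53 for Foxp2 and from -2.09 to -1.38 for Meis1. It ranged from -1.38 to -1.05 for Pbx3, from -1.22 to -0.91 for Meis2, from -0.89 to -0.59 for Foxp1 and from -0.73 to -0.41 for Foxp4. The end nearest to 0 came from total-read scaling for Foxp1, Foxp2, Foxp4, Meis2 and Pbx3.

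Other regulators of striatal development held some of the strongest losses among the lists. Of 14 such genes 10 were tested, 6 were lower (all tested genes 11.6%) and 1 was higher (7.64%), with a median log2 fold change of -1.02. Isl1, a LIM homeobox gene of direct pathway neurons, had 7.23, 2.90 and 4.44 normalized counts in Dnmt1 KO libraries, against 84.0, 89.9 and 95.8 in control libraries. Ebf1, which acts in the same neurons, had 14.46, 20.3 and 17.0 normalized counts in Dnmt1 KO libraries, against 152, 117 and 119 in control libraries. Zfhx3, a large zinc finger homeobox factor, had 55.8, 127 and 73.3 in Dnmt1 KO libraries, against 1015, 872 and 1099 in control libraries. All 3 genes were lower without overlap, with log2 fold changes of -4.02 (SE 0.33) for Isl1, -2.84 (SE 0.22) for Ebf1 and -3.61 (SE 0.22) for Zfhx3, and adjusted p of 2.45e-06, 1.33e-06 and 2.23e-07 in that order. Sp9, a zinc finger gene of the ganglionic eminences, was higher, with 906, 1013 and 962 normalized counts in Dnmt1 KO libraries, against 606, 625 and 590 in control libraries (log2 fold change 0.66, SE 0.07, adjusted p = 3.33e-05). Isl1, Ebf1 and Zfhx3 are also expressed outside the striatum.

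Genes that mature striatal neurons use were mostly not called, as were most tested genes (11.6% lower and 7.64% higher). Of 17 such effector genes 9 were tested, 1 was lower and 0 were higher, with a median log2 fold change of 0.03. Arpp21, a phosphoprotein of dopamine-responsive neurons, was the 1 called gene, with 90.9, 64.8 and 61.4 normalized counts in Dnmt1 KO libraries, against 101, 116 and 131 in control libraries (log2 fold change -0.69, adjusted p = 0.0188). The call was lost, leaving 0 called genes in the list, without Dnmt1 KO replicate 2 (adjusted p = 0.0745), Dnmt1 KO replicate 3 (0.0849) or control replicate 3 (0.0702), and under total-read scaling (0.0658), which called 2 other genes of the list higher. Penk, which encodes the enkephalin precursor, had 15.5, 10.6 and 8.88 normalized counts in Dnmt1 KO libraries, against 13.6, 27.4 and 24.5 in control libraries (adjusted p = 0.16). The dopamine receptor genes, which define mature striatal projection neurons, were low. Drd1 had 1.03 to 13.5 normalized counts in Dnmt1 KO libraries and 3.78 to 12.3 in control libraries. Drd2 had 0 to 0.740 normalized counts in Dnmt1 KO libraries and 1.89 to 3.70 in control libraries. Drd2 was thus at or below the floor in every library, while Drd1 stood above it in some Dnmt1 KO libraries and all control libraries.

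Paralogues of the members that are not members themselves were mostly not called, as were most tested genes. For this list and the cofactors below, the shares over all tested genes were 11.6% lower and 7.64% higher. Of 16 such genes 11 were tested, 1 was lower and 0 were higher, with a median of -0.19. Meis3 had 375, 393 and 390 normalized counts in Dnmt1 KO libraries, against 337, 293 and 334 in control libraries, and just missed the call (adjusted p = 0.0564). Of the 16 NuRD and CtBP cofactors, with which BCL11 proteins work, all were tested, 1 was lower (Gatad2a, -0.31) and 1 higher (Hdac2, 0.21), with a median of -0.02. The call of Gatad2a was lost in 5 of the 20 alternatives (without Dnmt1 KO replicate 2 or 3 or control replicate 1 or 2, and under total-read scaling) and that of Hdac2 in 9, among them edgeR and the removal of any library except Dnmt1 KO replicate 2. Over the alternatives the cofactors called numbered 0 to 4 lower and 0 to 8 higher, with the 8 under total-read scaling.

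Of the 23 tested BAF complex genes 3 were lower (all tested genes 11.6%) and 6 higher (7.64%), with a median of 0.20. Without Dnmt1 KO replicate 2 only 2 were higher, and total-read scaling called 1 lower and 15 higher. Dpf3, a subunit of the neuronal complex, had 18.6, 8.71 and 24.4 normalized counts in Dnmt1 KO libraries, against 59.3, 83.3 and 54.6 in control libraries (log2 fold change -1.96, SE 0.34, adjusted p = 0.00146). Smarca2, an ATPase of the complex, fell by 0.44 on the log2 scale, and Smarce1 and Bcl7a rose by 0.32 and 0.26.

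**Figure D4:**
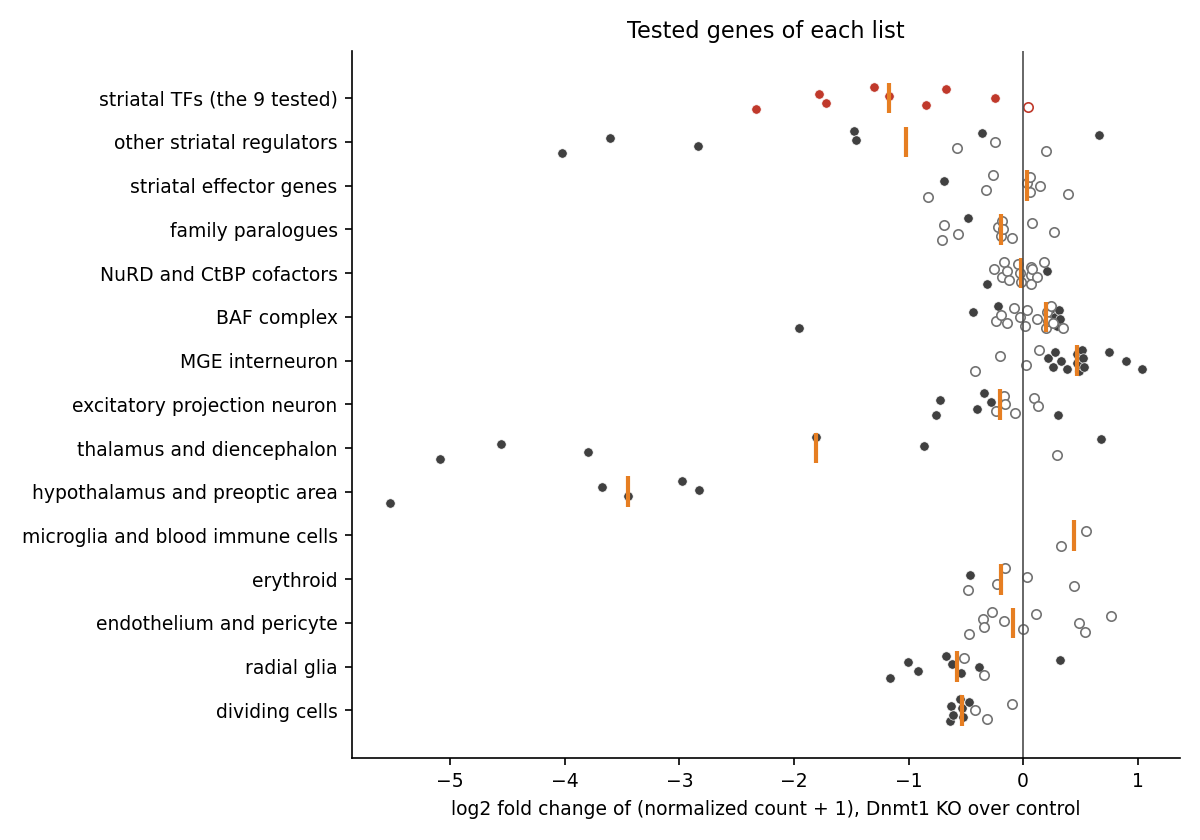
Log2 fold change (Dnmt1 KO over control) of the tested genes of each list, with the 9 tested factors in red, filled points for called genes, open points for genes not called and an orange bar for the median. The median of the factors is -1.17, that of the other striatal regulators -1.02, that of the effector genes 0.03 and that of the MGE interneuron markers 0.47.

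Marker lists of the sorted lineage and of other cells differed in direction, and some held few called genes. For each list, the shares to set beside it are 11.6% lower and 7.64% higher over all tested genes. The 20 markers of MGE interneurons, the sorted lineage, held 16 higher and 0 lower genes with a median of 0.47, and summed to 53356 to 54380 normalized counts in Dnmt1 KO libraries and 42026 to 45885 in control libraries. Zeb2, the most abundant of the list, rose by 0.26 on the log2 scale (adjusted p = 0.0349), a call that was lost in 6 of the 20 alternatives, including edgeR and the removal of Dnmt1 KO replicate 1 or 3 or control replicate 2 or 3.

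The 8 markers of thalamus and diencephalon summed to 494 to 529.8 normalized counts in Dnmt1 KO libraries and 1895 to 1977 in control libraries, and 5 of 7 tested were lower and 1 higher. Tcf7l2, the most abundant of them, had 34.1, 66.8 and 45.9 normalized counts in Dnmt1 KO libraries, against 1168, 1089 and 1134 in control libraries (log2 fold change -4.55). The 10 markers of hypothalamus and preoptic area summed to 28.1 to 58.9 normalized counts in Dnmt1 KO libraries and 409 to 467 in control libraries, and 5 of 5 tested were lower. Otp, Hmx2 and Hmx3 were at 0 in every Dnmt1 KO library, and Otp, with 50.6, 40.7 and 44.5 normalized counts in control libraries, was at least 16.5-fold lower against a floor of 3 reads per library. Foxp2, Meis2 and Six3 are known to be expressed in diencephalic or hypothalamic neurons too, and the part of such cells in the members' values was not tested. The set is named after striatal neurons, but the cells were sorted from cortex. Which cells gave the members' counts, striatal neurons included, was not tested.

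The 10 radial glia markers held 7 lower and 1 higher genes (0 higher without Dnmt1 KO replicate 2 or 3 or control replicate 1) and summed to 6253 to 6437 normalized counts in Dnmt1 KO libraries and 8802 to 9339 in control libraries. The 10 markers of dividing cells held 7 lower (3 under total-read scaling) and 0 higher genes and summed to 3005 to 3085 normalized counts in Dnmt1 KO libraries and 4138 to 4459 in control libraries. Of the 12 excitatory projection neuron markers 5 were lower (3 without Dnmt1 KO replicate 3 and 2 under total-read scaling) and 1 higher, with sums of 3553 to 3635 in Dnmt1 KO libraries and 3926 to 4071 in control libraries. Few erythroid markers (1 of 6 tested lower, 0 higher), endothelial and pericyte markers (0 of 10) and microglial markers (0 of 2 tested) were called. The erythroid call was lost without any 1 library other than Dnmt1 KO replicate 2, and 1 endothelial or pericyte marker was called higher without control replicate 1 or 2. Their part in the members' values was not tested either.

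Annotated genes that overlap a member or start within 5 kb of it numbered 44, of which 30 were listed in the table and 3 passed the filter. G630016G05Rik, a long noncoding RNA gene on the opposite strand across the start of Meis2 (chr2:115894998-115937330), had 18.6, 13.5 and 31.1 normalized counts in Dnmt1 KO libraries, against 45.7, 49.2 and 34.5 in control libraries. Its log2 fold change of -1.06 (SE 0.32) was called (adjusted p = 0.0335), but the call was lost in 8 of the 18 alternatives that could be fitted, among them DESeq2, the replicate block (adjusted p = 0.0605) and the removal of Dnmt1 KO replicate 1 (0.0842) or 2 (0.127) or control replicate 1 (0.0805) or 2 (0.0973). Six3os1, the opposite-strand transcript of Six3, had 2.07, 43.5 and 17.0 normalized counts in Dnmt1 KO libraries, against 51.9, 47.3 and 27.8 in control libraries, with overlapping groups and no call (adjusted p = 0.13). Without Dnmt1 KO replicate 2, its highest Dnmt1 KO library, Six3os1 was called lower (log2 fold change -2.50, adjusted p = 0.0234). Gm12063 near Bcl11a was not called (adjusted p = 0.89). The library kit keeps strand, but no source used here says whether counting did, so reads of opposite-strand partners may not be told apart. Gm20696, annotated as protein-coding on the same strand as Foxp1, held 3.70 to 6.20 normalized counts in Dnmt1 KO libraries and 7.57 to 11.1 in control libraries.

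Across the 6 libraries, the protein-coding gene most like each of 9 members was found by the Pearson correlation of log2(normalized count + 1) among 9294 genes with a mean of at least 50. These correlations describe 6 points that fall into 2 groups and share depth and scaling, so a high value mainly restates the difference between the genotypes. For Foxp1 it was Ebf1 (r = 0.999), for Pbx3 Tcf7l2 (0.998), for Meis2 Fat1 (0.999), an atypical cadherin, and for Six3 Aspm (0.998), a spindle gene of dividing progenitors. For Foxp2 it was Nt5dc3 (0.997), for Foxp4 Taf3 (0.998), a subunit of a general transcription factor, and for Meis1 Gm49336 (0.998). Bcl11b and Ikzf1, whose groups overlapped, were closest to Golga2 (0.989) and Prmt6 (0.983), with log2 fold changes of 0.09 and 0.02. Each match is the best of 9294 over 6 libraries, and Ikzf1 rests on 5 to 19 reads per library. Whether unrelated genes would match as closely was not tested.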

How the data were processed

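Total RNA of FAC-sorted cells was sequenced in 3 Dnmt1 KO and 3 control libraries, grouped by sample title. The submitters' processing notes list GRCm39 with DESeq2 1.42.1, R 4.3.3, Salmon 1.10.3, STAR 2.7.11b and Trim Galore 0.6.10, in no given role, and the study's methods give other versions. The signal per gene comes from the table of normalized counts that the authors deposited, made by dividing counts by a size factor per library. All values (100%, tolerance 0.001) were whole multiples of a step, so reads were recovered. No source used here says whether molecular identifiers were counted. Deposited tables of fold changes, p-values and enrichment terms hold the authors' own comparisons and were not used.

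Genes averaging at least 10 normalized counts were fitted as log2(normalized count + 1) with limma 3.58.1 (lmFit, eBayes with trend) in R 4.3.3, genotype being the only term. Tests were two-sided, and p-values were adjusted over all 14126 genes by Benjamini-Hochberg and called under 0.05. Fold changes on this scale understate changes of low genes. Paralogue ratios were compared by exact permutation over 20 assignments. The 20 alternatives included edgeR 4.0.16, which called 1666 genes lower and 1048 higher on recovered reads, and DESeq2 1.42.0. Only the main limma fit was tested on simulated counts. The simulation used known size factors, so it did not test the scaling. Positions and exons came from GENCODE M39 (0.879% of listed genes missing), and promoter windows from RefSeq (GRCm38.p6), placed in GRCm39 by exact sequence match. Pairs of libraries of a genotype differed by more than sampling noise (chi-square per gene 3.48 to 12.7), so none was merged.

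All members were named with every value. From each other list, up to 4 genes with the smallest p and, for other cell types, the most abundant gene could be named. Drd1, Drd2, Sst and genes named for being at 0 were named outside this rule, after their values were seen. The members and the lists were chosen with earlier results of these data known. A few genes that this rule would name are not reported here.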

Additional observations from a re-analysis of the deposited data

How the results depend on the processing

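Foxp1, Foxp2, Foxp4, Meis1, Meis2, Pbx3 and Six3 kept their call and direction in all 20 alternatives. Of 62 genes examined outside the members, 35 kept their direction and their call, or lack of a call, in every alternative that fitted them. The number of members lower in Dnmt1 KO was 7 or 8 in every alternative, and 7 to 8 with a library left out, while 0 were higher except under total-read scaling, which called 1 (Bcl11b). That scaling moved the counts over all tested genes to 1051 lower and 5051 higher, against 1638 and 1079. It turned Bcl11a (0.012), Ikzf4 (0.039), Pknox2 (0.082), Gatad2b (0.0012), Mta1 (0.077), Hbb-bs (0.031) and Hba-a1 (0.096) to the other side of 0 on the log2 scale, and it shifts the median of all tested genes. Size factors from protein-coding genes turned Hba-a2 to -0.00045, and total-read scaling and quantile normalization turned Gm12063 to 0.12 and 0.16. With a library left out, log2 fold changes ranged from -0.0060 (without control replicate 2) to 0.10 for Bcl11b, from -0.078 (without control replicate 2) to 0.64 for Csf1r, from -0.049 to 0.15 for Hba-a2 and from -0.36 to 0.22 for Gm12063, none of them called. With a library left out, tested genes numbered 1214 to 1539 lower and 528 to 973 higher, with the fewest higher genes without Dnmt1 KO replicate 3 (528) and replicate 2 (569). In the same settings the log2 ratio difference ranged from 0.76 to 1.17 for Foxp1/Foxp2, from -0.24 to -0.13 for Foxp1/Foxp4, from -1.34 to -0.90 for Foxp2/Foxp4, from -0.93 to -0.20 for Meis1/Meis2 and from -0.33 to -0.24 for Bcl11a/Bcl11b. The cause of these shifts was not tested. Same-numbered libraries showed little shared deviation (correlations -0.02, 0.06 and -0.03), so no pairing by number was seen. With 3 libraries per genotype, weak correlations cannot exclude a pairing. A fit with the replicate block called 8 members lower and 0 higher, and 1583 genes lower and 945 higher. Depth limits Ikzf1, which was fitted only without a filter, and the low values of Six3 and Meis1.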
